A study of Mus musculus with 17 samples.

Results

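The cytosolic ribosomal proteins build the 2 subunits of the ribosome that translates messages outside mitochondria. They were read here in colonic mucosa RNA through probe sets that carry a single gene symbol, Rpl or Rps followed by a number, Rplp0 to Rplp2, or Rpsa, with the probe set of highest mean standing for its gene. This gave 46 genes, 24 of the large and 22 of the small subunit, of 18193 genes with a probe set of 1 symbol. A further 28 ribosomal protein genes occur only on probe sets that carry several symbols and are given below as an unnamed group. Of the 46 genes, 45 are protein coding in the reference table and 1, Rps4l, is a transcribed pseudogene.

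Total RNA of colonic mucosa, as the authors name the tissue, was hybridized to 17 Affymetrix mouse genome arrays. The sample titles say colon. Wild-type (WT) mice and PPAR γ flfl; CD4Cre+ (CD4cre) mice, both in C57BL/6J background, were killed on day 0, 2 or 7 of drinking water with 2.5% dextran sodium sulfate (DSS), an agent that injures the colonic epithelium. The 6 groups were WT day 0, WT day 2, WT day 7, CD4cre day 0, CD4cre day 2 and CD4cre day 7, and each held 3 samples apart from WT day 7, which held 2. The recombinase of CD4cre mice is driven by the CD4 promoter, so that the receptor gene is deleted in CD4+ and CD8+ T cells, and mice of day 0 had received no DSS. Ages were not given, and the number of mice behind each array is not given in the sources used here. P-values therefore measure the spread between these samples.

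Each ribosome holds 1 copy of nearly every ribosomal protein, and the genes are among the most strongly transcribed of the genome. Their messages begin with a C followed by a run of pyrimidines, the terminal oligopyrimidine start, which places their translation under control of the kinase mTORC1. In the gut, dividing crypt cells, plasma cells and secretory epithelium all carry many ribosomes.

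Values are gcRMA values on the log2 scale, so that a difference of 1 is a doubling, and they ranged from 0.76 to 16.47 over all probe sets. Ribosomal protein transcripts lay near the top of this range: 34 of the 46 genes had a mean over the 17 samples of at least 12. The highest probe set value of the small subunit was that of Rps29, at 16.1 to 16.2 in every group mean, and that of the large subunit was that of Rpl13a, at 15.5 to 15.7. Background was taken as 2.87, the 95th percentile over 43 probe sets of olfactory receptors. The 3 genes with means below it were Rps16, at 2.00 to 2.04 in the group means, Rpl39l, a copy used mainly in testis, at 2.58 to 2.64, and Rpl3l, a copy used mainly in striated muscle, at 2.67 to 2.82. Rps16 is a component of every ribosome, and its low value shows that the only probe set with its symbol alone gave no signal here. Rps27, Rpl12, Rps25, Rpl39, Rpl14, Rpl27a, Rps4l, Rps6 and Rpl37 lay between background and 12. Levels of different genes are read from different probes and are not compared further.

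Within a group the ribosomal protein transcripts varied little. The median SD between samples was 0.039 to 0.079 in 5 of the groups and 0.162 in CD4cre mice on day 7. Over all probe sets above background it was 0.083 to 0.164 in the same 5 groups and 0.248 in CD4cre mice on day 7. Those probe sets were not matched in level to the 46 genes, so the contrast does not show a trait of ribosomal protein genes.

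Other differences between samples touch these results. Genes of pancreatic acinar enzymes had a mean of 12.1 to 12.9 in 3 samples (WT day 2 replicate 2, CD4cre day 2 replicate 1 and CD4cre day 0 replicate 2). CD4cre day 7 replicate 2 stood apart, with the lowest mean over 12 epithelial genes (12.0) of all samples and the highest over 17 fibroblast and matrix genes (12.3) and over 21 monocyte and macrophage genes (10.4). No epithelial gene was below background in any group. In bulk RNA, fewer cells of a type and less RNA per cell cannot be told apart.

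On day 7 of DSS the means of the large and of the small subunit were lower in CD4cre mice and higher in WT mice than on day 0 of the same genotype. The mean over the 24 large subunit genes was 12.12, 12.11 and 12.10 in CD4cre mice on day 0 (group mean 12.11 ± 0.0098, SD, n = 3) and 11.96, 11.78 and 12.05 on day 7 (11.93 ± 0.138, n = 3). All 3 samples of day 7 lay below the 3 of day 0, with replicate 2 furthest away and replicate 3 close by. In WT mice it was 12.09, 12.13 and 12.08 on day 0 (12.10 ± 0.029, n = 3) and 12.18 and 12.20 on day 7 (12.19 ± 0.014, n = 2), again without overlap. The mean over the 22 small subunit genes was 12.49, 12.52 and 12.51 in CD4cre mice on day 0 and 12.46, 12.34 and 12.52 on day 7. Replicate 3 thus reached the level of day 0, but this mean includes the pseudogene Rps4l. Rps4l had CD4cre group means of 6.47 on day 0 and 8.35 on day 7, and the small subunit mean without it was not computed. Over the 34 genes of both subunits with a mean of at least 12, Rps4l is left out. There the CD4cre samples of day 7 (14.37, 14.22 and 14.52) lay below those of day 0 (14.54, 14.56 and 14.56). In WT mice it was 12.48, 12.53 and 12.56 on day 0 and 12.60 and 12.67 on day 7. On day 2 the group means were 12.09 and 12.59 in WT mice and 12.10 and 12.56 in CD4cre mice for the large and the small subunit. The small subunit mean of CD4cre mice again includes Rps4l, at 8.20 on day 2. Over the genes with a mean of at least 12 the CD4cre group mean was 14.55 on day 0 and 14.54 on day 2.

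**Figure D1:**
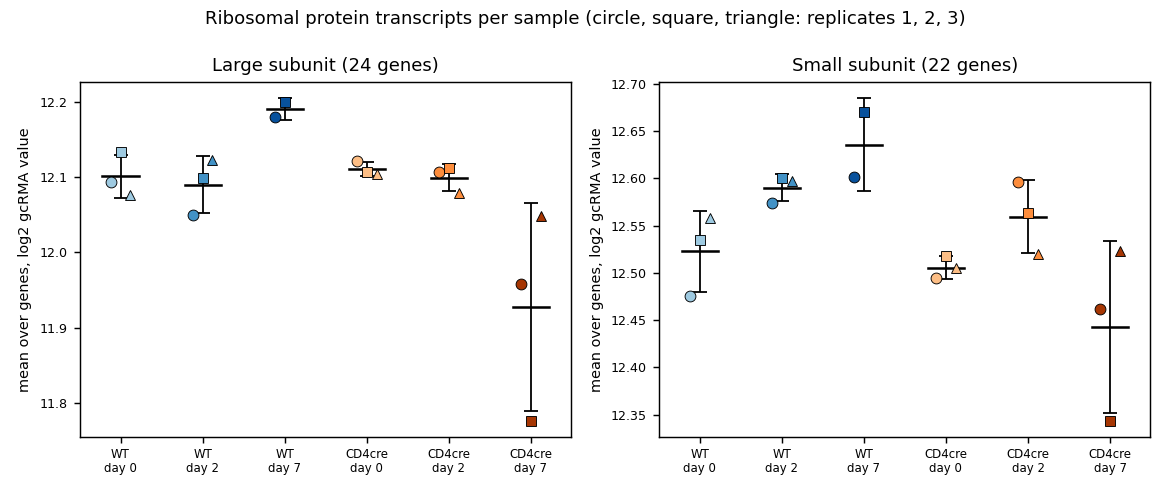
Mean log2 gcRMA value over the large subunit genes (left) and the small subunit genes (right), one point per sample, for each genotype on each day of DSS; lines and bars are group means ± SD. CD4cre day 7 replicate 2 is the lowest sample in both panels (11.78 and 12.34) and the 2 WT samples of day 7 are the highest of the large subunit (12.18 and 12.20). The right panel includes Rps4l, which was low in CD4cre mice on day 0 and raises their later means.

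The lead comparison asked how DSS changed the mucosa of mice whose T cells lack PPAR γ. In CD4cre mice on day 7, 10 of 46 ribosomal protein genes fell and 1 rose against day 0 at an adjusted p under 0.05 (limma, two-sided, adjusted over all 45037 probe sets), and 41 of 46 had a negative log2 fold change. The 10 were 5 of the large subunit (Rpl6, Rpl11, Rpl14, Rpl27 and Rpl37) and 5 of the small subunit (Rps4x, Rps6, Rps7, Rps19 and Rps26), or 21.7% of the 46 genes, where 3.24% of all probe sets tested were called lower. The gene that rose was Rps4l, where 3.5% of all probe sets were called higher. The changes were small: the median log2 fold change over the 46 genes was -0.16, that is, a level that fell by 10.6%, against -0.027 over all probe sets. The medians were -0.15 for the large and -0.16 for the small subunit. Among the 34 genes with a mean of at least 12, 97.1% had a negative fold change and the median was -0.19, while 64.3% of the 1089 probe sets of that level had a negative one and their median was -0.099. Of these 34 genes 7 were called lower, where 9.09% of the 1089 probe sets were. The values of CD4cre mice on day 7 lay below all those of day 0 for 23 of the 46 genes, where this held for 36.6% of all probe sets.

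Rps6 encodes the small subunit protein that S6 kinases phosphorylate downstream of mTORC1. Its values in CD4cre mice were 9.60, 9.92 and 9.70 on day 0, 9.81, 9.56 and 9.55 on day 2, and 9.24, 9.12 and 9.22 on day 7. In WT mice they were 9.66, 9.64 and 9.50, then 9.69, 9.77 and 9.82, then 9.75 and 9.80. The 3 CD4cre samples of day 7 were the lowest of all 17 and lay close together. The log2 fold change of day 7 against day 0 in CD4cre mice was -0.54 (SE 0.086, adjusted p = 0.0044, limma), so that the level fell by 31.3%.

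Rpl37, a protein of the large subunit, was likewise lowest in the 3 CD4cre samples of day 7. Its values were 11.34, 11.33 and 11.44 in CD4cre mice on day 0, 11.23, 11.16 and 11.38 on day 2, and 10.73, 10.71 and 10.86 on day 7. All WT samples lay between 11.05 and 11.47. The log2 fold change was -0.60 (SE 0.085, adjusted p = 0.0025). The highest CD4cre sample of day 7 was thus under the lowest of the other 14.

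Rpl14, also of the large subunit, had the largest fall, -0.71 (SE 0.144, adjusted p = 0.0139), at a low level. Its values went from 7.40, 7.41 and 7.02 on day 0 over 7.24, 7.16 and 6.98 on day 2 to 6.77, 6.29 and 6.63 on day 7. The groups of day 0 and day 7 did not overlap, though replicate 3 of day 0 stood nearer to day 7 than replicates 1 and 2.

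Rps4x, the X-linked gene of a small subunit protein, had a small change. It stood at 15.14, 15.13 and 15.06 in CD4cre mice on day 0, 15.17, 15.14 and 15.14 on day 2 and 14.86, 14.83 and 15.00 on day 7. The fold change was -0.22 (SE 0.041, adjusted p = 0.0100), and the SD between samples of a group was 0.018 to 0.089 in CD4cre mice. In WT mice it stood at 15.01, 15.09 and 15.03 on day 0 and at 15.16 and 15.19 on day 7.

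In the other 6 genes called lower, replicate 3 of CD4cre day 7 was mostly nearer to day 0 than replicates 1 and 2. Rps7, another small subunit protein, had 15.11, 15.10 and 15.05 on day 0 and 14.63, 14.55 and 14.87 on day 7 (log2 fold change -0.40). Rps26, which lies where the message leaves the small subunit, had 14.35, 14.32 and 14.35 and then 13.93, 13.63 and 14.21 (-0.42). Rps19, whose loss of 1 copy causes Diamond-Blackfan anaemia in people, had 13.54, 13.58 and 13.67 and then 13.14, 12.91 and 13.43 (-0.44). In these 3 genes the groups did not overlap and replicate 2 of day 7 was the lowest. The other probe set of Rps7 had a fold change of -0.15 and was not called (adjusted p = 0.220). Rpl11, a large subunit protein that also binds and inhibits Mdm2, had 13.88, 14.03 and 13.98 and then 13.50, 13.22 and 13.82 (-0.45). Rpl6 had 13.66, 13.75 and 13.66 and then 13.23, 13.14 and 13.63 (-0.36). Rpl27 had 13.70, 13.65 and 13.78 and then 13.55, 13.45 and 13.48 (-0.21), and is the one of the 6 in which replicate 3 of day 7 was not the highest. The adjusted p of the 6 genes ranged from 0.0154 (Rps7) to 0.0461 (Rpl6). With 1 sample left out in turn, the call of Rpl6 was kept in 1 and that of Rpl11 in 3 of 17 fits, while the others of the 6 kept theirs in 12 to 14.

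Over all 46 genes, CD4cre day 7 replicate 2 was the lowest of its group for 43 genes and replicate 3 the highest for 35. The median difference from the mean of day 0 was -0.16, -0.29 and -0.049 for replicates 1, 2 and 3. The fibroblast and matrix genes stood at 10.96, 12.33 and 10.99 in these samples, the monocyte and macrophage genes at 9.38, 10.43 and 9.32 and the epithelial genes at 12.75, 12.02 and 12.60, and their part in the result was not tested. Without replicate 2 the count of genes called lower was 5, without replicate 1 it was 5, and without replicate 3 it was 22. It was 3, 4 and 5 without replicates 1, 2 and 3 of CD4cre day 0. Without the 3 samples with pancreatic transcripts 2 genes were called lower, with the median of every array set to the same value 24, and in a fit of only the 2 groups compared none.

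**Figure D2:**
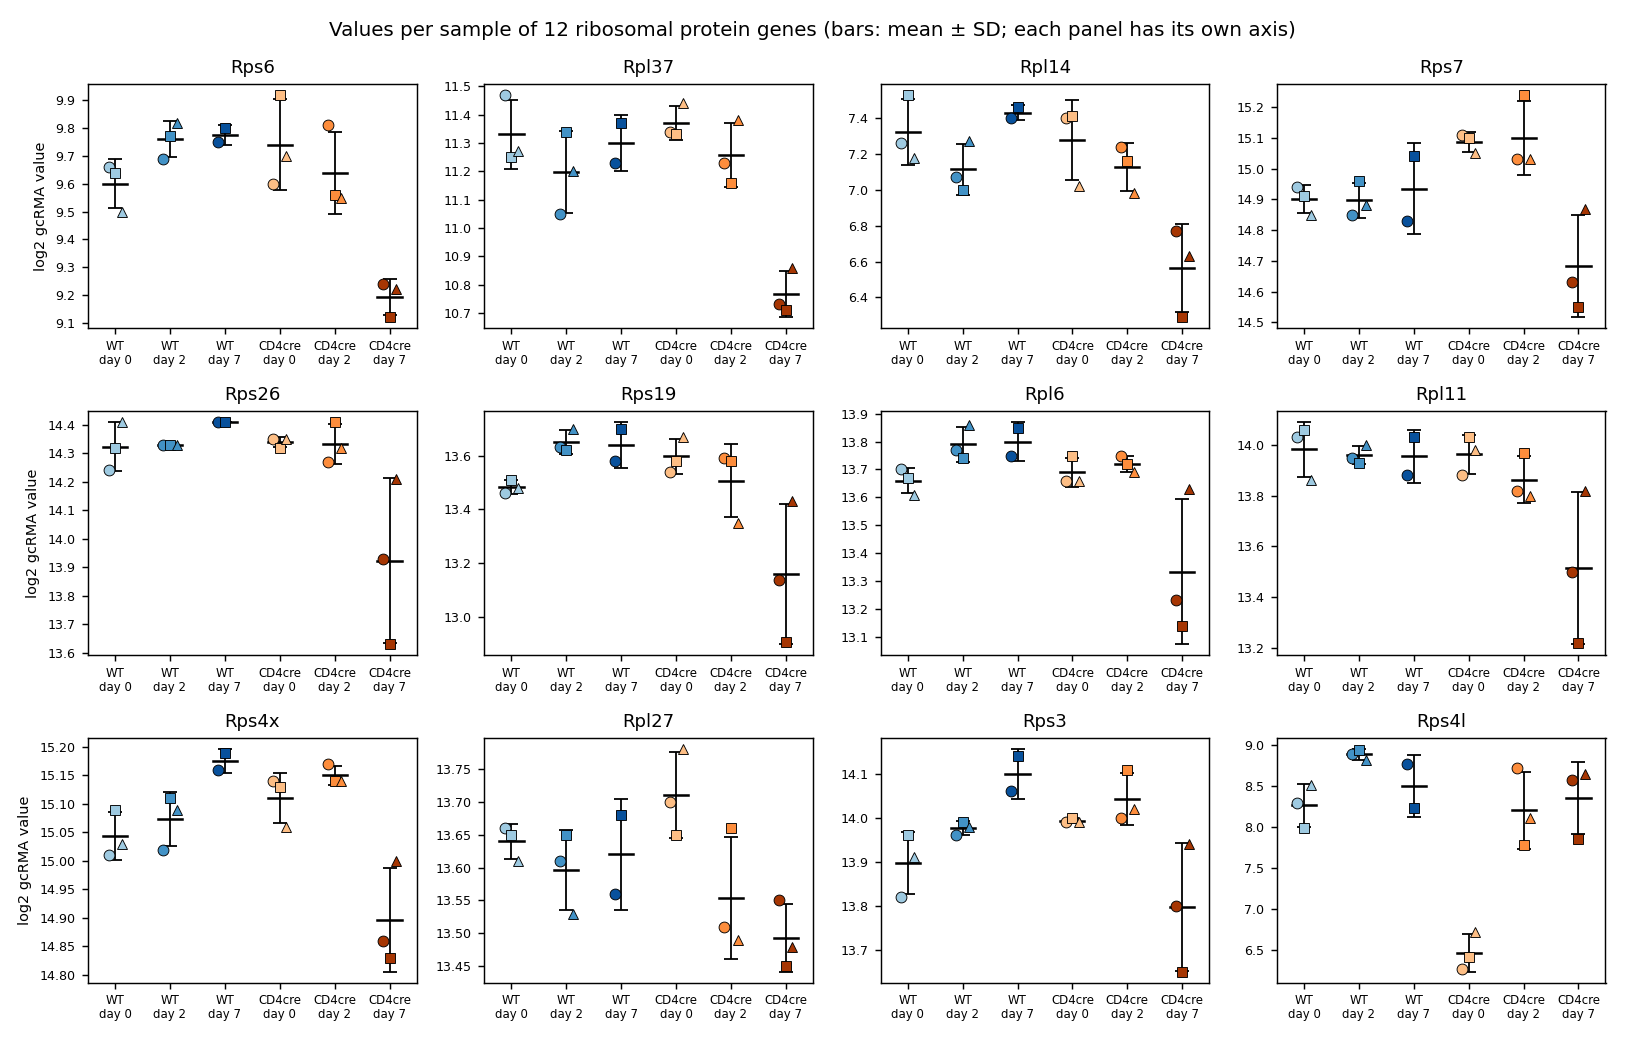
Log2 gcRMA values of 12 ribosomal protein genes in each genotype on each day of DSS; circles, squares and triangles are the samples of replicates 1, 2 and 3, lines and bars are group means ± SD, and each gene has an axis of its own. For Rps6 the CD4cre samples of day 7 lie at 9.12 to 9.24, under all others, while for Rps4l the CD4cre samples of day 0 lie at 6.27 to 6.72, under all others.

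Rps4l went the other way. Its values in CD4cre mice were 6.27, 6.41 and 6.72 on day 0, 8.71, 7.78 and 8.11 on day 2 and 8.57, 7.85 and 8.64 on day 7. In WT mice they were 8.29, 7.98 and 8.51 on day 0, 8.89, 8.94 and 8.81 on day 2, and 8.76 and 8.23 on day 7. The 3 CD4cre samples of day 0 thus stood apart from the other 14, and the rise led to the level of WT mice. The log2 fold change in CD4cre mice was 1.89 on day 7 (SE 0.263, adjusted p = 0.0022) and 1.74 on day 2 (SE 0.263, adjusted p = 0.0776). On day 0 CD4cre mice differed from WT mice by -1.80 (SE 0.263, adjusted p = 0.127), and on day 7 by -0.14 (SE 0.293, adjusted p = 0.939). In the fit of only the 2 groups compared the adjusted p on day 7 was 0.103, the highest over the alternatives, of which the lowest was 1.5e-04. Rps4l resembles Rps4x in sequence, and whether its probes also catch other copies was not tested.

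The remaining 35 genes did not pass the test in CD4cre mice on day 7 at the probe set that stands for them. A further probe set of Rps24, at nearly the same level, did pass (-0.30, SE 0.033, adjusted p = 7.7e-04, limma). Rps25 and Rpl27a, at low levels, had the next largest positive fold changes, 0.53 (SE 0.252) and 0.31 (SE 0.340). The stalk of the large subunit, which recruits elongation factors, was measured through Rplp0 and Rplp2. Rplp0 had 15.19, 15.18 and 15.17 on day 0 and 15.01, 14.75 and 15.15 on day 7 (-0.21, adjusted p = 0.183), and Rplp2 14.86, 14.82 and 14.85 and then 14.77, 14.58 and 14.89 (-0.097, adjusted p = 0.397). Replicate 2 of day 7 was the lowest in both. Rpsa, a small subunit protein that is also the precursor of a laminin receptor, had group means of 13.28 ± 0.017 on day 0 and 13.28 ± 0.271 on day 7 (SD, n = 3; log2 fold change 0.0053, adjusted p = 0.979). Rps27l, a copy of Rps27 that p53 induces, had 13.11, 12.96 and 12.86 and then 12.85, 12.54 and 12.93 (-0.21, adjusted p = 0.254). Rpl10l and Rplp1 had no probe set with their symbol alone.

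Promoter windows of the genes that fell together are shown to give the sequence around their starts (RefSeq, GRCm38.p6, 40 bases before the annotated start and 20 from it). A promoter of 250 bases before and 50 after the start was matched for 40 of the 46 genes, 10 of them called lower. In the first 3, capitals mark a run of C and T that begins with C within 10 bases of the annotated start, which is the form of a terminal oligopyrimidine start.
Rps6, chr4:86857348-86857407, minus strand: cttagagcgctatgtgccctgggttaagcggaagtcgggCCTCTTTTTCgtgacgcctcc
Rpl14, chr9:120571477-120571536, plus strand: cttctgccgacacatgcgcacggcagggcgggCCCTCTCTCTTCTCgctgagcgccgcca
Rps26, chr10:128626487-128626546, minus strand: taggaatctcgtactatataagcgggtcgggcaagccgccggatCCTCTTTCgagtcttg

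The run in Rps6 begins 1 base before the annotated start and is 10 bases long. In Rps26 it begins 4 bases after, is 8 bases long, and in Rpl14 it begins 8 bases before and is 14 long. A run of 5 or more was found near the start of 26 of the 40 genes (65.0%), of 6 of the 10 called lower (60.0%) and of 34.9% of 17491 protein-coding genes. Of the other 30 genes 66.7% had one, and the difference from the 10 was not tested. The annotated start itself was a C that opened or lay within such a run, with at least 4 C or T after it, in 8 of the 40 genes, in 2 of the 10 and in 2.67% of protein-coding genes.

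A second set shows the letters CCGGAA, the core bound by transcription factors of the ETS family, on either strand (in capitals).
Rpl37, chr15:5116573-5116632, plus strand: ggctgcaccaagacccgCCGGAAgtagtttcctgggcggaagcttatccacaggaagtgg
Rpl27, chr11:101442205-101442264, plus strand: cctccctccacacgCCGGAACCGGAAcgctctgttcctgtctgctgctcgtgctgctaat
Rpl6, chr5:121204461-121204520, plus strand: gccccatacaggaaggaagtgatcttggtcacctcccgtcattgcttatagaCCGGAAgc
Rps7, chr12:28635934-28635993, minus strand: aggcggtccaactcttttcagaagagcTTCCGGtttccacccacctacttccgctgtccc

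In the whole windows of 300 bases, CCGGAA stood on one strand or the other in 26 of the 40 genes (65.0%), in 9 of the 10 called lower, in 17 of the other 30 (56.7%) and in 20.9% of protein-coding genes. GGGCGG, the GC box, stood in 55.0% of the 40 genes and in 49.2% of protein-coding genes, and AAGATGGC, a core of YY1 sites, in 7.5% and 3.57%. These are matches of letters and no measure of binding.

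The next comparison set CD4cre mice against WT mice on day 7. Here 6 of the 46 genes were lower in CD4cre mice and none was higher: Rpl14, Rpl37 and Rpl37a of the large subunit and Rps3, Rps4x and Rps6 of the small subunit. Of all probe sets 0.806% were called lower. Among the 34 genes with a mean of at least 12, 3 were called lower, where 3.21% of the 1089 probe sets of that level were. The log2 difference was negative for 43 of 46 genes, with a median of -0.22, against -0.0092 over all probe sets. At a mean of at least 12 the median was -0.25 for the genes and -0.12 for the 1089 probe sets. The 3 CD4cre samples lay below both WT samples for 28 genes (60.9%), where this held for 19.6% of all probe sets. The differences were -0.86 for Rpl14 (SE 0.161, adjusted p = 0.0281), -0.58 for Rps6 (SE 0.096, adjusted p = 0.0188), -0.53 for Rpl37 (SE 0.095, adjusted p = 0.0247) and -0.28 for Rps4x (SE 0.046, adjusted p = 0.0186), 4 genes that also fell against day 0.

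Rpl37a and Rps3 passed in this comparison and not against day 0 in either genotype. Rpl37a, a large subunit protein, had 15.12, 15.06 and 15.17 in WT mice on day 0 and 15.33 and 15.33 on day 7, and in CD4cre mice 15.13, 15.17 and 15.19 and then 15.12, 15.05 and 15.17 (difference on day 7 -0.21, SE 0.042, adjusted p = 0.0322). Rps3, which lies where the message enters the small subunit, had 13.82, 13.96 and 13.91 and then 14.06 and 14.14 in WT mice, and 13.99, 14.00 and 13.99 and then 13.80, 13.65 and 13.94 in CD4cre mice (-0.30, SE 0.067, adjusted p = 0.0492). In both genes the 2 WT samples of day 7 were above all 3 of day 0. The other bright probe set of Rpl37a had -0.18 (adjusted p = 0.289), and the mean of all its probe sets did not pass either. The call of Rpl37a was kept in 11 and that of Rps3 in 1 of 17 fits with 1 sample left out. With 2 WT samples on day 7 this comparison rested on few samples: without one or the other the count of genes called lower was 1 or 0. It was 3, 3 and 26 without CD4cre day 7 replicates 1, 2 and 3, 1 without the 3 samples with pancreatic transcripts, and 0 in a fit of only these 2 groups.

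In WT mice on day 7 none of the 46 genes was called in either direction against day 0, where 0.0755% of all probe sets were called higher. At an unadjusted p under 0.05, 10 genes were higher and none lower, and the share of all probe sets at that unadjusted p is not given here. The fold change was positive for 35 of 46 genes with a median of 0.12, against -0.027 over all probe sets, and the 2 samples of day 7 lay above all 3 of day 0 for 22 genes (47.8%), where this held for 10.1% of all probe sets. The largest rises were those of Rpl12 (0.54, SE 0.224), Rps25 (0.44, SE 0.281) and Rpl22 (0.31, SE 0.149), and the largest falls those of Rpl27a (-0.47, SE 0.381), Rps27l (-0.16, SE 0.117) and Rpl41 (-0.099, SE 0.149). None of these passed.

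The difference of the DSS effects, CD4cre minus WT mice on day 7, was tested directly. It was negative for 42 of the 46 genes, with a median of -0.28, against 0.0043 over all probe sets, and for all 34 genes with a mean of at least 12, where 60.2% of the 1089 probe sets of that level were negative. No gene was called by limma, where 0.0955% of all probe sets were called lower. At an unadjusted p under 0.05, 28 genes had a negative and 1 a positive difference. The share of all probe sets at that unadjusted p is not given here. The lowest adjusted p were 0.0634 for Rps4x (difference -0.35, SE 0.062) and 0.0645 for Rps6 (-0.72, SE 0.129). Side by side, 31 genes had a positive fold change in WT and a negative one in CD4cre mice, 10 were negative and 4 positive in both, and 1 was negative in WT mice alone. Without CD4cre day 7 replicate 3, 18 genes were called lower, and with array quality weights 17.

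**Figure D3:**
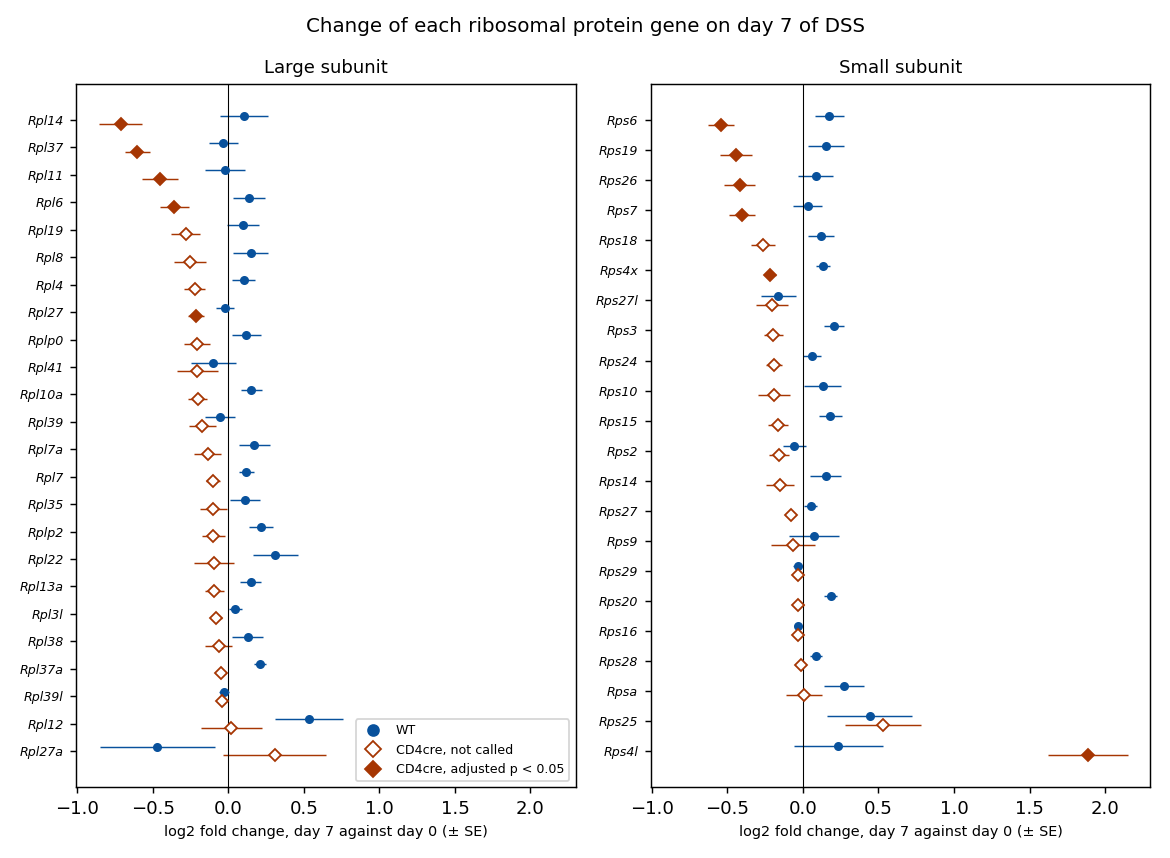
Log2 fold change of day 7 against day 0 (± SE, from limma) of each large subunit gene (left) and small subunit gene (right), in WT mice (circles) and CD4cre mice (diamonds, filled where the adjusted p was under 0.05), ordered by the change in CD4cre mice. In CD4cre mice 41 of 46 genes lie left of 0 and in WT mice 35 of 46 lie right of it; Rps4l is the only filled diamond on the right (1.89).

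From day 2 to day 7, 8 of the 46 genes fell in CD4cre mice (Rpl6, Rpl14, Rpl37, Rps3, Rps4x, Rps6, Rps7 and Rps26) and none rose, where 2.93% of all probe sets were called lower. The median was -0.14. At a mean of at least 12, 5 genes were called lower, where 9.46% of the 1089 probe sets of that level were. The largest of the 8 were Rpl14 (-0.56, SE 0.144, adjusted p = 0.0430) and Rpl37 (-0.49, SE 0.085, adjusted p = 0.0078), and 4 genes, Rpl14, Rpl37, Rps4x and Rps6, were lower in all 3 comparisons of CD4cre mice on day 7. These comparisons share the samples of CD4cre day 7. Leaving out any 1 sample gave 3 to 21 genes, the last without CD4cre day 7 replicate 3. In WT mice no gene passed from day 2 to day 7, where 0.244% of all probe sets were called. At an unadjusted p under 0.05, 5 genes were higher, and the share of all probe sets at that unadjusted p is not given here.

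On day 2 no gene passed in either genotype. In WT mice, where 0.449% of all probe sets were called, 2 genes were higher at an unadjusted p under 0.05 and the median fold change was 0.024. The largest were Rps4l (0.62, SE 0.263), Rps19 (0.16, SE 0.106) and Rps6 (0.16, SE 0.086) upward, and Rpl27a (-0.22, SE 0.340), Rpl14 (-0.21, SE 0.144) and Rpl41 (-0.19, SE 0.133) downward. In CD4cre mice, where 0.0178% were called, the median was -0.0010, and after Rps4l the largest were Rps25 (0.14, SE 0.252) and Rpl41 (0.11, SE 0.133) upward, and Rps9 (-0.24, SE 0.147), Rpl27 (-0.15, SE 0.052) and Rpl14 (-0.15, SE 0.144) downward, with 2 genes at an unadjusted p under 0.05. Between the genotypes no gene was called on day 0, where 0.00666% of all probe sets were, nor on day 2, where 0.0422% were, and 4 and 2 genes had an unadjusted p under 0.05. The difference of DSS effects on day 2, where 0.00222% of all probe sets were called, gave no gene and 2 at an unadjusted p under 0.05. The shares of all probe sets at these unadjusted p are not given here, so the counts show no change of the members.

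Probe sets that the choice of members left aside were read as well. The 46 genes had 54 further probe sets, of which 46 had a negative fold change in CD4cre mice on day 7 with a median of -0.13, and 5 were called lower and none higher. The 5 belonged to Rps24 (-0.30 and -0.24), Rpl27 (-0.28), Rpl35 (-0.27) and Rps20 (-1.04, at a mean of 4.89). Other further probe sets of these 4 genes were not called. Against WT mice on day 7, 1 of the 54 was called lower, of Rps24 (-0.31, adjusted p = 0.0032, limma). Over all probe sets tested 67.9% were negative and 3.24% were called lower. Among the 110 probe sets that name a ribosomal protein gene together with other symbols, 100 had a negative fold change with a median of -0.15, and 22 were called lower and none higher. Against WT mice on day 7 these 110 had a median of -0.24, with 15 called lower, where 0.806% of all probe sets were. They come from the same samples as the 46 genes.

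Other parts of the translation machinery were read from lists, whose counts in CD4cre mice on day 7 stand against the 3.24% of all probe sets called lower and a median of -0.027. Of 3 further ribosomal protein genes measured, Rpl22l1, a copy of Rpl22, fell in CD4cre mice on day 7 (-0.40, SE 0.104, adjusted p = 0.0394), and Fau, which encodes Rps30 fused to a ubiquitin-like protein, had -0.18 (SE 0.170). Of 30 initiation factors, 5 fell and none rose, with a median of -0.059. The 3 with the lowest adjusted p were Eif3h (-0.54, SE 0.112), Eif3f (-0.40, SE 0.096) and Eif3m (-0.52, SE 0.128), subunits of the complex that binds the small ribosomal subunit. Of 15 other messages with a terminal oligopyrimidine start, 3 fell, Eif3h and Eif3f again and Naca (-0.28, SE 0.058, adjusted p = 0.0163), which binds nascent chains at the ribosome, with a median of -0.087. Of 9 elongation factors none passed. Eef1a1, which brings tRNA to the ribosome, had 0.025 (SE 0.044, adjusted p = 0.722), and Eef1b2 had -0.26 (SE 0.071, adjusted p = 0.0523).

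The genes that make ribosomes did not pass. Of 47 measured genes of ribosome biogenesis none was called in CD4cre mice on day 7, 33 were negative and the median was -0.092. Among them were the nucleolar proteins Npm1 (-0.094, SE 0.106) and Ncl (0.22, SE 0.134). Of 12 genes of RNA polymerase I transcription none was called either, with a median of -0.16, among them its subunits Polr1d (-0.070, SE 0.086) and Polr1c (-0.14, SE 0.059). The mean over these 12 genes was nonetheless 7.42 to 7.47 in CD4cre mice on day 0 and 7.10 to 7.25 on day 7, without overlap. In WT mice it was 7.27 to 7.32 on day 0, 7.25 to 7.39 on day 2 and 7.34 to 7.35 on day 7. The CD4cre samples of day 0 thus lay above all WT samples. Of all single probe sets, 36.6% were lower without overlap in CD4cre mice on day 7 against day 0. Of 26 genes of mTORC1 signalling and translation control 2 fell, Deptor, an inhibitor of mTOR (-0.51, SE 0.116, adjusted p = 0.0233), and Eif2ak4, a kinase that senses missing amino acids (-0.45, SE 0.113, adjusted p = 0.0362), and the median was -0.035, where 3.24% of all probe sets were called lower.

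The mitochondrial ribosomal proteins, which build the separate ribosome of mitochondria, mostly had negative fold changes on day 7. Of 76 genes 8 fell and none rose in CD4cre mice on day 7, 73 were negative, and the median was -0.33, against -0.16 for the cytosolic genes. The lowest adjusted p were those of Mrps23 (-0.79, SE 0.142, adjusted p = 0.0078), Mrps27 (-0.95, SE 0.186, adjusted p = 0.0122) and Mrpl50 (-0.71, SE 0.145, adjusted p = 0.0147). In WT mice on day 7 the median was -0.069, where the cytosolic genes had 0.12. No test of the difference between the 2 ribosomes was made. The list mean of the mitochondrial genes was 9.56 to 9.68 in CD4cre mice on day 0. On day 7 it was 9.40, 8.86 and 9.51 in replicates 1, 2 and 3. Most cytosolic genes stood at 12 or over, so the medians come from unlike levels, and the part of the level was not tested.

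Markers of cell types moved in the same samples. Of 21 monocyte and macrophage genes all rose in CD4cre mice on day 7, with a mean over the list of 7.37 to 7.52 on day 0 and 9.32 to 10.43 on day 7. The Fc receptor Fcgr1 rose by 3.21 log2 units (SE 0.336; limma adjusted p = 7.1e-04). Of 17 fibroblast and matrix genes 10 rose, with Timp1 at 5.25 (SE 0.569, adjusted p = 7.6e-04) and list means of 9.84 to 10.07 and then 10.96 to 12.33. Of 15 neutrophil genes 5 rose, with S100a9 at 8.03 (SE 0.493, adjusted p = 1.9e-05) and list means of 2.81 to 2.85 and then 4.07 to 5.90. On day 0, 11 of the 15 were below background in CD4cre mice, and on day 7, 6 were.

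Lists of the other cell types did not move this way. Of 12 epithelial genes none was called, with list means of 12.44 to 12.55 on day 0 and 12.02 to 12.75 on day 7, and Krt8 at 0.14 (SE 0.129). None was called among 10 smooth muscle, 12 B cell and 13 T cell genes. Of these, 7 B cell and 7 T cell genes were below background in CD4cre mice on day 0 and on day 7. Of 25 proliferation genes 1, Aurkb, fell (-1.42, SE 0.340, adjusted p = 0.0291), a share near the 3.24% of all probe sets called lower, with list means of 7.87 to 8.57 on day 0 and 7.31 to 8.42 on day 7. Of 13 pancreatic enzyme genes none was called. The part of these lists in the change of the ribosomal protein genes was not tested.

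**Figure D4:**
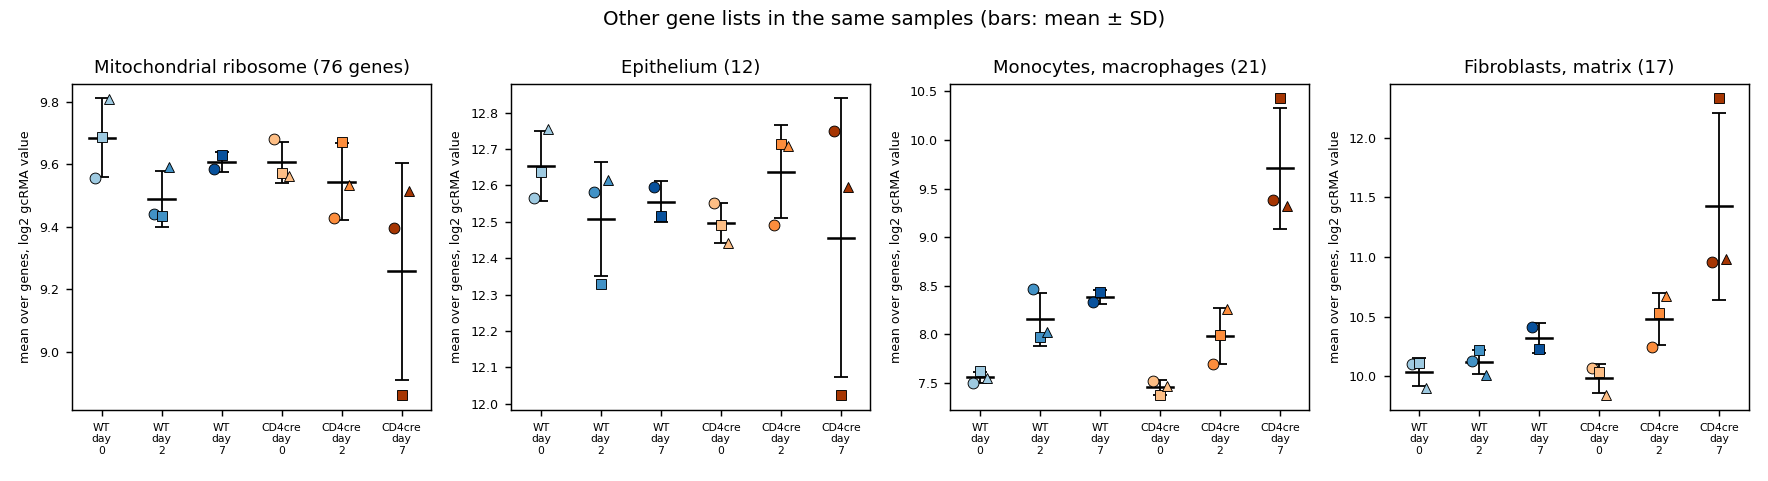
Mean log2 gcRMA value of 4 gene lists for each genotype on each day of DSS, from left to right mitochondrial ribosomal proteins, epithelium, monocytes and macrophages, and fibroblasts and matrix; circles, squares and triangles are the samples of replicates 1, 2 and 3, and lines and bars are group means ± SD. In CD4cre mice on day 7 replicate 2 is the lowest sample of the first 2 lists (8.86 and 12.02) and the highest of the last 2 (10.43 and 12.33).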

How the data were processed

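The authors read the Affymetrix arrays with affy and deposited gcRMA values on the log2 scale (R 2.9.0), adjusted for background, normalized across arrays and summarized per probe set. Normalization across arrays sets each value relative to the others, so a shift shared by all transcripts cannot be seen. The number of arrays limits the precision.

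Gene symbols came from the array's annotation: 34945 probe sets carried 1 symbol, 932 several and 9160 none. Of 45101 probe sets, 64 controls were left out and 45037 were tested, with no filter on low values, so that all 46 members were tested. The fit was a limma model (version 3.58.1, R 4.3.3) of 6 group means on 17 samples, moderated by empirical Bayes with 11 degrees of freedom from the residuals and 0.888 from the prior. It gave 11 comparisons, each adjusted by Benjamini-Hochberg over all 45037 probe sets and called at an adjusted p under 0.05, two-sided. The fit was also run on simulated data, with independent noise and the same spread in every group. It therefore leaves out the larger spread of CD4cre day 7 and lends no support to the calls there. Summaries were made in Python 3.11.15.

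Named were, per comparison, up to 10 members called in each direction, the 3 largest rises and falls of each DSS comparison, the highest and lowest member of each subunit, the stalk and paralog genes, and up to 3 called genes per direction of each list, or 2 of the highest mean. Members and lists were chosen with earlier results of these data known, and the background level, the promoter features and their motifs were chosen after the values were seen. The labels do not say whether a replicate number marks a shared litter, batch or day, and the main fit used no pairing. Of 40 pairs of same-numbered samples, 16 had a correlation of deviations over 0.1 (range -0.49 to 0.43). Differently numbered pairs were not read, so this cannot decide whether the numbers pair the samples. The closing section gives the alternatives.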

Additional observations from a re-analysis of the deposited data

Results flagged for a closer look

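On day 7 every CD4cre sample had a large subunit mean below the mean of day 0 and every WT sample one above it. The shift in CD4cre mice minus that in WT mice was -0.27 on the log2 scale. This difference of means was not tested. The same pattern, lower in every CD4cre sample and higher in every WT sample than the mean of day 0, held for 16 of the 46 genes on day 7 and for 3 on day 2, and none of these genes was called in the test of the difference of DSS effects. The share of all probe sets with this pattern was not counted, so these counts cannot show whether the 46 genes differ from the rest.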

How the results depend on the processing

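The 25 calls of single genes kept their direction under all 27 alternatives, and 467 of 675 values kept their call. Genes called lower in CD4cre mice on day 7 against day 0 (10), in CD4cre against WT mice on day 7 (6) and from day 2 to day 7 in CD4cre mice (8) were 24, 13 and 9 with median centring, 0, 0 and 0 when only the groups compared were fitted, 2, 1 and 3 without the 3 samples with pancreatic transcripts, 15, 12 and 4 with array quality weights, whose estimate stopped before convergence, and 8, 3 and 6 with the replicate number as a block. A filter at a mean of 4, which leaves 42 of the 46 genes, gave 3 in CD4cre against WT mice on day 7, 1 lower in CD4cre against WT mice on day 0 and 1 higher in CD4cre mice on day 2. With the Hox position score as a covariate, 2 genes were higher in CD4cre mice on day 7 against day 0 and 1 against day 2. That score was -0.67, 0.38 and -0.77 in CD4cre day 7 replicates 1, 2 and 3.

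Array quality weights also called 13 higher and 1 lower in WT mice on day 2, 12 higher in WT mice on day 7, 1 higher from day 2 to day 7 in WT mice, 1 higher in CD4cre mice on day 2, 15 higher and 2 lower in CD4cre against WT mice on day 0, and 17 lower and 1 higher for the difference of DSS effects on day 7. Limma's trend and robust options gave 9, 4 and 6 lower in the 3 comparisons named first, and probe sets without the suffix x_at or s_at, which change for 14 genes, gave 9, 5 and 7. The former ended the calls of Rpl27, Rpl37a, Rps3 and, against day 2, Rpl14, and the latter those of Rpl27, Rpl37a and Rps7. The mean of all probe sets of a gene called 1 lower for that difference. The cause was not tested.

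With 1 sample left out in turn there were 3 to 22 lower and 1 to 2 higher in CD4cre mice on day 7 against day 0, 0 to 26 lower in CD4cre against WT mice on day 7, 3 to 21 lower from day 2 to day 7 in CD4cre mice, and 0 to 18 lower and 0 to 1 higher for the difference of DSS effects on day 7. It gave 0 to 1 higher in CD4cre mice on day 2 and 0 to 1 lower in CD4cre against WT mice on day 0. Rps4l, Rps6, Rpl37 and Rps4x on day 7 against day 0 in CD4cre mice kept their calls without any 1 sample. All of these lost their calls when only the groups compared were fitted. Rps4x also lost its call with the filter at a mean of 4 and without the 3 samples with pancreatic transcripts. The median log2 fold change ranged over the alternatives from -0.24 to -0.080 (large) and -0.22 to -0.088 (small subunit) in CD4cre mice on day 7 against day 0, from 0.076 to 0.14 and 0.077 to 0.16 in WT mice, from -0.35 to -0.16 and -0.29 to -0.12 in CD4cre against WT mice on day 7, and from -0.40 to -0.22 and -0.33 to -0.18 for the difference of DSS effects on day 7, where CD4cre day 7 replicates 2 and 3, left out, gave the smallest and the largest shift in CD4cre against WT mice. Members at a low signal, the small number of samples and the single-symbol rule limit what could be seen.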

Other observations

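The size of the change in CD4cre mice on day 7 differed with the level of the probe set. The 9 genes with a mean of 15 or over had a median log2 fold change of -0.065, the 15 genes from 14 to 15 one of -0.16 and the 10 genes from 12 to 14 one of -0.23. Of these, 1, 2 and 4 genes fell. The 9 genes between background and 12 had a median of -0.081 with a range from -0.71 to 1.89, and 3 fell and 1 rose. The 3 genes below background lay between -0.079 and -0.029, and none was called. Against WT mice on day 7 the medians of the first 3 bands were -0.19, -0.25 and -0.34. Whether bright probes understate changes was not tested.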
